A study of Mus musculus with 8 samples.

Results

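The colony-stimulating factors and their receptors were followed as 10 transcripts, picked by gene name from the 49671 genes of the deposited tables. They are the ligands Csf1, Il34, Csf2 and Csf3 and the receptor genes Csf1r, Csf2ra, Csf2rb, Csf2rb2, Csf3r and Flt3. All 10 had at least 10 counts in total over the libraries, and so belonged to the 21423 genes tested. RNA of mixed exudate leukocytes was sequenced from 8 wild-type C57BL/6 mice, all male and aged 6 to 8 weeks. The mice of the SPM group (n = 4) received a panel of 5 specialized pro-resolving mediators, RvD1, RvD2, RvD5, MaR1 and RvE2, at 0.1 ng each in 5 intraperitoneal injections between day 0 and day 9 (day 0, then days 2, 5 and 7, and last day 9). A sixth injection on day 12 was accompanied by 1 mg zymosan A, a yeast cell wall preparation that causes peritonitis. The vehicle group (n = 4) received zymosan and the same injections without SPMs (0.01% ethanol in 1 mL saline), and all exudates were collected at 12 h of peritonitis. Every library came from a single mouse, and there was no group without zymosan, so all levels are those of an inflamed peritoneum.

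Colony-stimulating factors are secreted proteins that keep myeloid cells alive and drive their production and activation. M-CSF (Csf1) and IL-34 share the receptor tyrosine kinase CSF1R, on which monocytes and MΦ depend. G-CSF (Csf3) acts through CSF3R on PMN and their precursors. GM-CSF (Csf2) binds a specific alpha chain (Csf2ra) that signals with a common beta chain (Csf2rb), which the receptors of IL-3 and IL-5 also use, and mice carry a close copy, Csf2rb2, that serves IL-3. FLT3, a relative of CSF1R, is a receptor of dendritic cell precursors.

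The libraries held 15154054 to 20836489 gene counts in the SPM group and 20170355 to 21114301 in the vehicle group. Vehicle mice 1 and 3 stood apart with 26428 and 27592 genes detected, against 23051 to 24409 in the other mice. SPM mice 3 and 4 were treated as a pair because some stromal genes, such as Pdgfrb, were high in them in earlier results (5.78 and 5.30 CPM, against 1.68 to 2.24 CPM in the other mice), although the sum of the fibroblast markers was not. Counts of members past a threshold are therefore also given without each of these pairs. Levels are given as CPM, counts scaled to a common library size by TMM, and comparisons between genes as the deposited TPM, which is also scaled for gene length. Nothing in the labels pairs the mouse numbers between groups, and all p-values measure the spread between single mice.

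Of the 10 transcripts, 1 (Csf3r, higher after SPM) had an unadjusted p under 0.05 from edgeR's quasi-likelihood test, where 6.08% of all genes tested did so in either direction and 2.49% in the higher direction. After Benjamini-Hochberg adjustment over all genes 0 of the 10 passed 0.05 (edgeR), as did 0.0% of all genes, with a smallest adjusted p of 0.790. DESeq2 and limma also left 0 members after adjustment. Csf3r was again the 1 member under 0.05 unadjusted with either tool. The members split into 6 with a higher and 4 with a lower fitted level after SPM, with a median log2 fold change of 0.080 beside -0.017 for all genes. Without vehicle mice 1 and 3 the number under 0.05 was 0 (653 of all genes), and without SPM mice 3 and 4 it was 2, now Csf3 and Flt3 (978 of all genes), beside 1303 of all genes with the 8 mice. When the spike-in RNA set the scale, the median of all genes moved to 0.45, 9 members were higher and 1 (Csf3) lower, and 4 had an unadjusted p under 0.05 (Csf2rb, Csf2rb2, Csf3r and Flt3), as did 3607 of all genes. The spike-in scale also turned most lower directions given below, and higher and lower therefore mean relative to the TMM scale.

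**Figure D1:**
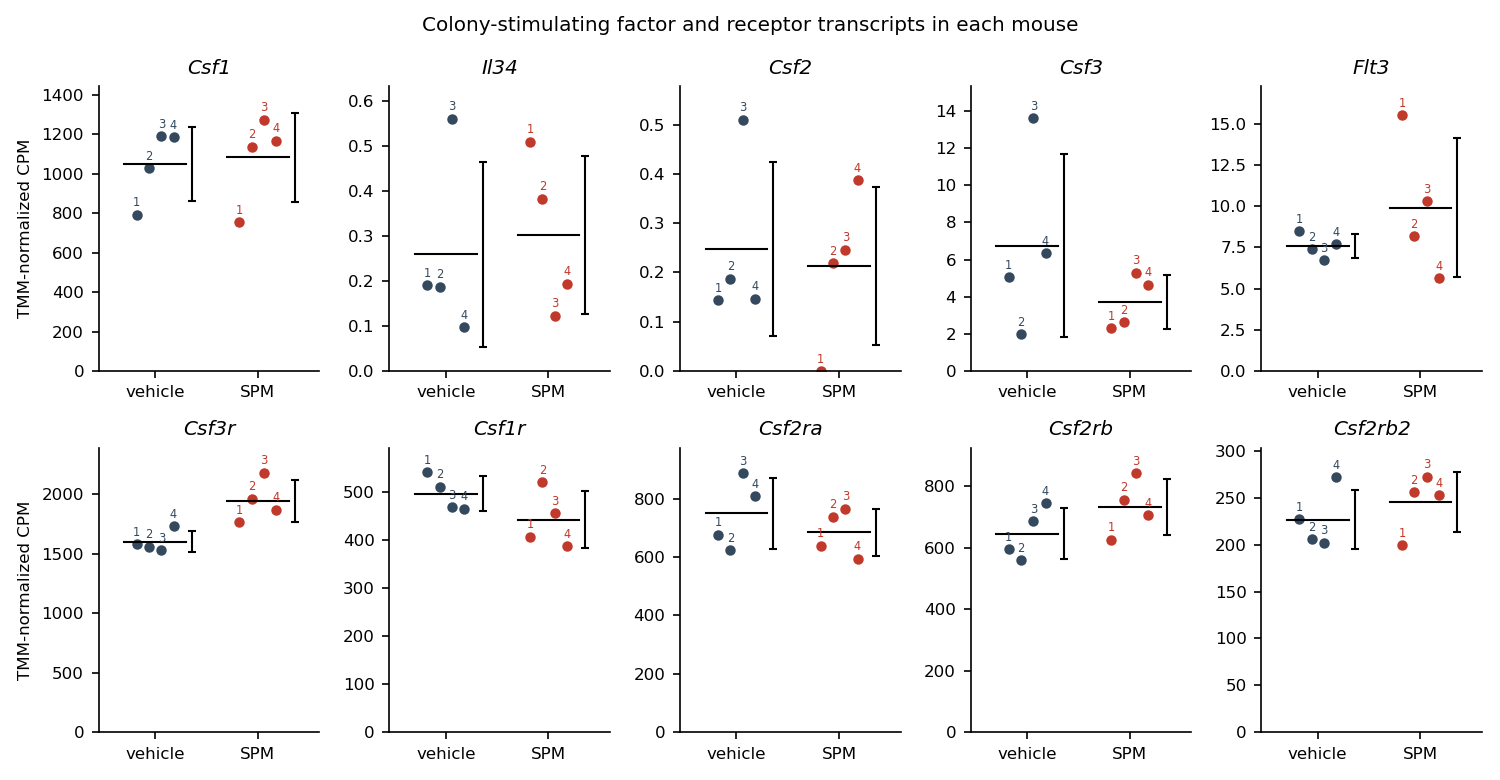
TMM-normalized CPM (linear axis from 0) of the 10 transcripts in the 4 vehicle and 4 SPM mice, with mouse numbers beside the points, means as lines and SD as bars. Csf3r alone has every SPM mouse (1762 CPM or more) above every vehicle mouse (1734 CPM or less).

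Csf1 was the abundant ligand of the exudate. Csf1 (ENSMUSG00000014599, GRCm38 chromosome 3, 107741048 to 107760469, minus strand) measured 756, 1139, 1275 and 1168 CPM in the SPM mice (mouse 1 to 4, the order used throughout) and 793, 1030, 1190 and 1185 CPM in the vehicle mice. Mouse 1 was the lowest of each group, and the groups overlapped over nearly their whole range. The SPM mean was 1084 ± 227 CPM (SD, n = 4), the vehicle mean 1050 ± 186 CPM (SD, n = 4) and the log2 fold change 0.047 (standard error 0.17, edgeR, unadjusted p = 0.786, adjusted p = 0.973). Its sign turned without SPM mouse 3 (-0.039) and without vehicle mouse 1 (-0.064). The coefficient of variation between mice was 20.9% after SPM and 17.8% after vehicle, where counting error alone would give 0.732% and 0.681%.

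Il34, the other ligand of CSF1R, was near the limit of what these libraries can show. Il34 (ENSMUSG00000031750, chromosome 8, 110741829 to 110805924, minus strand) had 11, 7, 2 and 3 counts in the SPM mice and 4, 4, 11 and 2 in the vehicle mice, 44 in all. The highest values, 11 counts each, came from SPM mouse 1 and vehicle mouse 3, so the groups overlapped. A count of 11 has an exact Poisson 95% interval of 5.49 to 19.7 and a count of 2 one of 0.242 to 7.22, which cover counting error only. The log2 fold change was 0.28 (standard error 0.60, edgeR, unadjusted p = 0.651), it was -0.097 without SPM mouse 1, and no difference was detectable at this depth. Il34 shares exonic bases with Gm15894 and Gm15895 on the opposite strand, and since the strand setting of the counting is not given in the sources used here, part of its few reads is uncertain.

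Csf2, the GM-CSF gene, was as rare. Csf2 (ENSMUSG00000018916, chromosome 11, 54247271 to 54249667, minus strand) had 0, 4, 4 and 6 counts in the SPM mice and 3, 4, 10 and 3 in the vehicle mice. SPM mouse 1 held no read, which allows up to 3.69 counts (exact Poisson 95% interval), and vehicle mouse 3 was above the other vehicle mice. With an SPM mean of 0.213 ± 0.160 CPM (SD, n = 4) and a vehicle mean of 0.247 ± 0.177 CPM (SD, n = 4), the log2 fold change came to -0.27 (standard error 0.75, edgeR, unadjusted p = 0.727). It was 0.33 without vehicle mouse 3 and 0.21 without SPM mouse 1, so the data give no direction for Csf2. Its exons overlap Gm12223 on the opposite strand.

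Csf3, the G-CSF gene, was the ligand with the largest fitted difference, and also a variable one. Csf3 (ENSMUSG00000038067, chromosome 11, 98701263 to 98703629, plus strand) was at 2.32, 2.62, 5.29 and 4.65 CPM in the SPM mice and at 5.05, 1.96, 13.6 and 6.36 CPM in the vehicle mice. The highest value was that of vehicle mouse 3 (267 counts) and the lowest that of vehicle mouse 2 (42 counts), so that the vehicle group spanned all the SPM mice. The SPM mean of 3.72 ± 1.47 CPM (SD, n = 4) and the vehicle mean of 6.75 ± 4.94 CPM (SD, n = 4) gave a log2 fold change of -0.87 (standard error 0.45, edgeR, unadjusted p = 0.0771, adjusted p = 0.791). By exact permutation of the mice (two-sided) p was 0.314. The value rested on single vehicle mice: it was -0.27 without vehicle mouse 3 (edgeR, unadjusted p = 0.481) and -1.16 without vehicle mouse 2 (unadjusted p = 0.00708). With the spike-in RNA as the scale it was -0.28 (edgeR, unadjusted p = 0.395), a smaller difference than those of Il34 (0.66) and Csf1 (0.61). With every gene of at least 1 count in the fit Csf3 passed the adjustment (edgeR, adjusted p = 0.00579), as it did under no other setting. The variation between vehicle mice (73.2%) was above that expected of counting error (8.57%).

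Csf3r, the G-CSF receptor carried by PMN, was the member whose groups did not overlap, as did 3.83% of all genes tested in either direction and 1.46% in the higher direction. Csf3r (ENSMUSG00000028859, chromosome 4, 126024550 to 126044440, plus strand) was at 1762, 1961, 2180 and 1869 CPM in the SPM mice and at 1581, 1559, 1530 and 1734 CPM in the vehicle mice. The lowest SPM mouse (mouse 1) lay just above the highest vehicle mouse (mouse 4). The mean of 1943 ± 178 CPM (SD, n = 4) after SPM was 21.4% above the vehicle mean of 1601 ± 90.9 CPM (SD, n = 4). The log2 fold change was 0.28 (standard error 0.11, edgeR, unadjusted p = 0.0203, adjusted p = 0.790), and a two-sided exact permutation test gave p = 0.0286, the smallest that 4 mice against 4 allow. The share of genes with an unadjusted p under 0.05 was 6.48% among genes with at least 100 CPM, and 3.85% of those had groups that did not overlap. The log2 fold change of Csf3r came to 0.22 without SPM mouse 3 (edgeR, unadjusted p = 0.0774), and with any other mouse left out its p stayed under 0.05. Without vehicle mice 1 and 3 it was 0.24 (edgeR, unadjusted p = 0.0893), and without SPM mice 3 and 4 it was 0.23 (unadjusted p = 0.0915).

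Markers of PMN had the same sign as Csf3r on each of the 4 scales tried, and their summed levels overlapped between the groups. All 8 markers fixed for PMN (S100a8, S100a9, Ly6g, Cxcr2, Mmp8, Mmp9, Retnlg and Il1r2) had a higher fitted level after SPM, 1 of them with an unadjusted p under 0.05 from edgeR, Cxcr2 (log2 fold change 0.37, exact permutation p = 0.143). Their summed level was 15323 to 23335 CPM in the SPM mice and 11389 to 22373 CPM in the vehicle mice, and none of them was at 0 in any mouse. In bulk RNA, fewer cells of a type and less RNA per cell cannot be told apart, and the part of the PMN share in the Csf3r difference was not tested.

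Csf1r, which marks monocytes and MΦ, had the opposite sign. Csf1r (ENSMUSG00000024621, chromosome 18, 61105572 to 61132149, plus strand) was at 407, 520, 456 and 387 CPM in the SPM mice and at 541, 511, 468 and 466 CPM in the vehicle mice. SPM mouse 2 lay among the vehicle mice, and the other SPM mice lay below all of them. The SPM mean was 442 ± 59.2 CPM (SD, n = 4), the vehicle mean 496 ± 36.2 CPM (SD, n = 4) and the log2 fold change -0.17 (standard error 0.11, edgeR, unadjusted p = 0.157, adjusted p = 0.805) and a two-sided exact permutation p of 0.143. Without SPM mouse 2 it was -0.25 (edgeR, unadjusted p = 0.0415), without SPM mouse 4 it was -0.094 (unadjusted p = 0.415), and with the spike-in RNA as the scale it turned to 0.32 (unadjusted p = 0.305). Csf1r shares exonic bases with Hmgxb3 on the opposite strand.

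Markers of the cells that carry CSF1R had the same sign as Csf1r on the TMM scale, and their summed levels overlapped between the groups. The fitted level was lower for all 8 resident MΦ markers (Gata6, Timd4, Adgre1, C1qa, C1qb, C1qc, Mertk and Cd5l), and 0 of them had an unadjusted p under 0.05 (edgeR). Their summed level was 585 to 969 CPM in the SPM mice and 800 to 980 CPM in the vehicle mice. All 5 monocyte markers (Ly6c2, Ccr2, Vcan, F13a1 and Chil3) were also lower, 1 of them (F13a1, log2 fold change -0.31, edgeR unadjusted p = 0.0151) past that threshold. Their sum was 1814 to 2255 CPM after SPM and 2184 to 2505 CPM after vehicle. On the spike-in scale 6 of the 8 resident MΦ markers and 5 of the 5 monocyte markers were higher, with medians of 0.23 and 0.34, below the 0.45 of all genes. The part of these cells in the Csf1r values was not tested.

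The GM-CSF receptor chains were abundant, and neither passed the test. Csf2ra (ENSMUSG00000059326, chromosome 19, 61224402 to 61228418, minus strand), the alpha chain that binds GM-CSF, was at 639, 738, 765 and 594 CPM in the SPM mice and at 676, 624, 888 and 809 CPM in the vehicle mice. Csf2rb (ENSMUSG00000071713, chromosome 15, 78325990 to 78351000, plus strand), the common beta chain, was at 627, 756, 844 and 707 CPM in the SPM mice and at 595, 561, 686 and 745 CPM in the vehicle mice. In both the groups overlapped. The log2 fold change was -0.13 for Csf2ra (standard error 0.13, edgeR, unadjusted p = 0.332) and 0.18 for Csf2rb (standard error 0.12, unadjusted p = 0.161). Over the mice left out in turn the values ran from -0.19 to -0.037 (without vehicle mouse 3) for Csf2ra and from 0.11 (without SPM mouse 3) to 0.26 for Csf2rb, and Csf2ra was at -0.055 without SPM mouse 4. With the spike-in RNA as the scale both were positive, at 0.41 for Csf2ra and 0.72 for Csf2rb.

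Csf2rb2 (ENSMUSG00000071714, chromosome 15, 78282517 to 78305603, minus strand), the beta chain of the mouse IL-3 receptor, was at 199, 256, 272 and 253 CPM in the SPM mice and at 227, 206, 202 and 271 CPM in the vehicle mice. The lowest value was in SPM mouse 1 and the groups overlapped. Its log2 fold change was 0.11 (standard error 0.12, edgeR, unadjusted p = 0.375, adjusted p = 0.883). Leaving out SPM mouse 3 gave 0.060 and leaving out vehicle mouse 3 gave 0.064, while leaving out SPM mouse 1 or vehicle mouse 4 gave 0.21, and the value was 0.015 without SPM mice 3 and 4.

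The beta chain genes are neighbours on chromosome 15 and close copies, which bears on how reads can be told apart. Over 2628 aligned coding positions without gaps, 2503 were identical (95.2%). Exact shared stretches were less common. Of all 100-base windows of the Csf2rb transcript 7.16% were also found in the Csf2rb2 transcript, and of the 50-base windows 18.9%. Only reads that mapped to 1 place were counted, so read pairs that lie wholly within such stretches would be missing from both genes. The first 120 coding bases of each, from the GENCODE M21 transcripts (GRCm38), are shown because they have the median identity of all such windows, 96.7%, with the 4 bases that differ in capitals.
Csf2rb: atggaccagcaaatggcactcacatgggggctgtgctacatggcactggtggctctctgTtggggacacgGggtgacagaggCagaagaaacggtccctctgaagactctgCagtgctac
Csf2rb2: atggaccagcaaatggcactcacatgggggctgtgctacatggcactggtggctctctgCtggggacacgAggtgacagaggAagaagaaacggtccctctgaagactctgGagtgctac

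Flt3 had a low level with 1 high mouse. Flt3 (ENSMUSG00000042817, chromosome 5, 147330741 to 147400489, minus strand) was at 15.5, 8.20, 10.3 and 5.62 CPM in the SPM mice and at 8.49, 7.39, 6.73 and 7.68 CPM in the vehicle mice. SPM mouse 1 was the highest and SPM mouse 4 the lowest of all 8 mice. SPM mouse 1 also had the highest summed markers, given below, of B cells (2135 CPM), T and NK cells (104 CPM) and dendritic cells (137 CPM). The part of these cells in the Flt3 value was not tested. The log2 fold change of Flt3 was 0.40 (standard error 0.24, edgeR, unadjusted p = 0.123, adjusted p = 0.798). Leaving out SPM mouse 1 gave 0.10, and leaving out SPM mouse 4 gave 0.60 (edgeR, unadjusted p = 0.0125). Between mice it varied by 42.4% after SPM, where counting error alone gives 7.41%, and by 9.61% after vehicle.

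**Figure D2:**
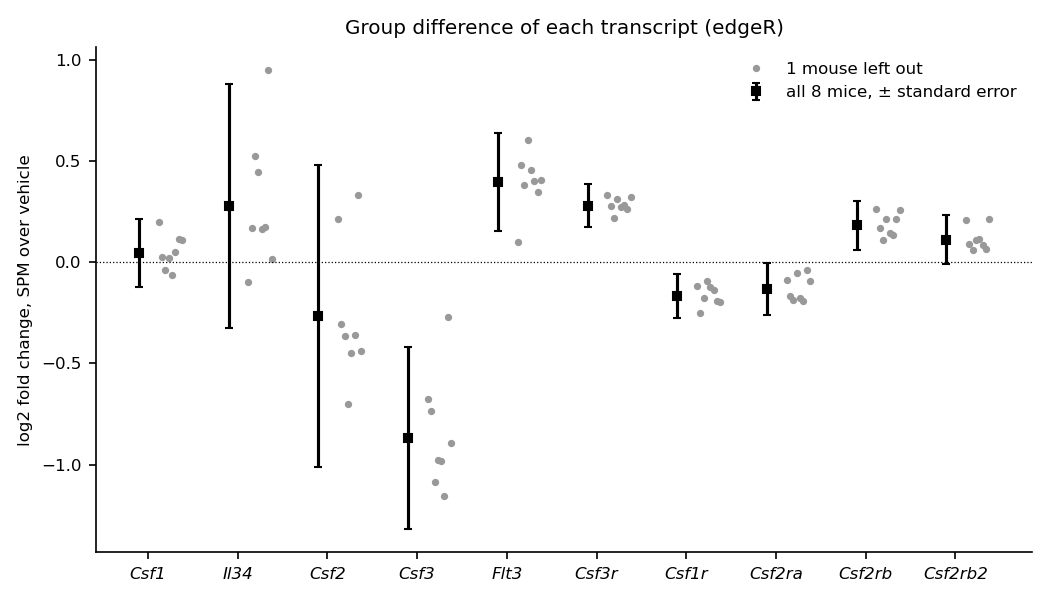
Log2 fold change of SPM over vehicle from edgeR for each transcript (squares, with bars of 1 standard error) and the same value with each mouse left out in turn (grey points). The points of Csf3r stay between 0.22 and 0.33, while those of Csf1, Il34 and Csf2 lie on both sides of 0.

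Ratios of transcripts within a mouse do not depend on scaling between libraries. The ratio of Csf3r to Csf1r (TPM) was 5.86, 5.11, 6.48 and 6.53 in the SPM mice and 3.96, 4.13, 4.42 and 5.04 in the vehicle mice. No SPM mouse was below any vehicle mouse, though SPM mouse 2 and vehicle mouse 4 were nearly level. The difference of the log2 ratios was 0.45 (two-sided exact permutation test, p = 0.0286, adjusted p = 0.0714 over the 5 ratios tested). The transcript of the PMN receptor was thus higher relative to that of the MΦ receptor after SPM in these 8 mice, and the difference did not pass 0.05 after adjustment.

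The ratio of the common beta chain to the GM-CSF alpha chain (Csf2rb to Csf2ra, TPM) was 0.381, 0.398, 0.428 and 0.462 in the SPM mice and 0.341, 0.349, 0.300 and 0.357 in the vehicle mice. Here too the groups did not overlap, with a difference of 0.31 on the log2 scale (two-sided exact permutation test, p = 0.0286, adjusted p = 0.0714). The ratio of Csf2rb to Csf2rb2 lay between 2.71 and 3.05 in the SPM mice and between 2.54 and 3.29 in the vehicle mice, a log2 difference of 0.070 (exact permutation p = 0.486, adjusted p = 0.607), which was 0.028 without vehicle mouse 1 and 0.15 without vehicle mouse 3. Csf1 to its receptor Csf1r lay between 1.72 and 2.79 in the SPM mice and between 1.36 and 2.35 in the vehicle mice, a log2 difference of 0.21 (exact permutation p = 0.400, adjusted p = 0.607), which was 0.040 without vehicle mouse 1 and 0.34 without SPM mouse 1. Il34 to Csf1 differed by 0.26 on the log2 scale (exact permutation p = 0.743), a value made of a few reads. With 4 mice a group, no adjusted p under 0.0286 could arise in these tests. Once the other ratios overlapped, 0.0714 was the lowest adjusted p that the separated ratios could reach. The adjusted p therefore could not decide whether these ratios differed.

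**Figure D3:**
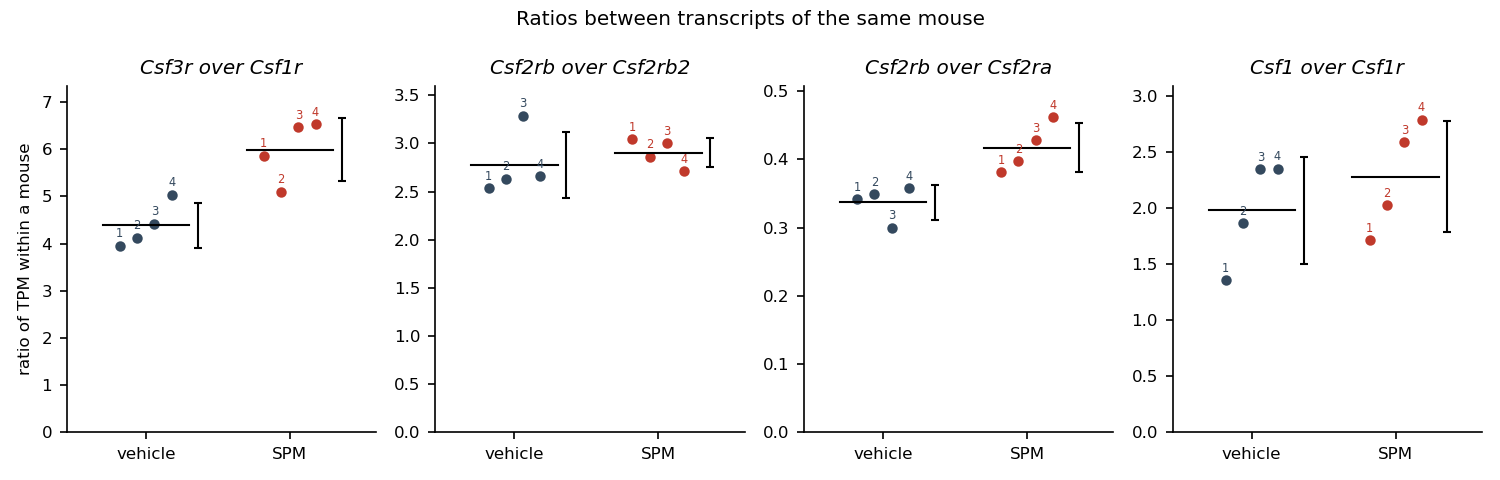
Ratio of deposited TPM between transcripts of the same mouse (linear axis from 0), with mouse numbers beside the points, group means as lines and SD as bars. Csf3r over Csf1r (SPM mice 5.11 or more, vehicle mice 5.04 or less) and Csf2rb over Csf2ra (SPM mice 0.381 or more, vehicle mice 0.357 or less) separate the groups, and the other ratios overlap.

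The members fell into an abundant and a rare set by level per length. The mean TPM over the 8 mice was 1393 ± 195 (SD, n = 8) for Csf3r, above that of 99.7% of the genes tested, and 1093 ± 107 for Csf2ra. Csf1 followed at 571 ± 95.7 TPM, then Csf2rb at 410 ± 53.2 TPM, Csf1r at 272 ± 32.9 TPM and Csf2rb2 at 145 ± 20.5 TPM. Much lower came Csf3 at 10.2 ± 6.51 TPM, Flt3 at 4.03 ± 1.51 TPM, Csf2 at 0.798 ± 0.515 TPM and Il34 at 0.402 ± 0.246 TPM. The order of the means was the same within each group. Csf1 was therefore the only ligand among the abundant members, and the GM-CSF receptor was abundant where the GM-CSF transcript itself was nearly absent.

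Of the 9 neighbouring pairs in this order, 8 differed in a two-sided exact sign-flip test of the ratio within the mouse (adjusted p of 0.0117 to 0.0352, n = 8). Csf3r was above Csf2ra in 7 of 8 mice (1.27-fold, exact sign-flip test, adjusted p = 0.0301), vehicle mouse 3 being the exception. Csf3 was above Flt3 in 7 of 8 mice (2.27-fold, exact sign-flip test, adjusted p = 0.0352), the exception being SPM mouse 1. Csf2 was above Il34 in 7 of 8 mice, but the pair did not differ beyond its spread (1.38-fold, exact sign-flip test, adjusted p = 0.727). The exception was SPM mouse 1, with no Csf2 read, and without it the ratio was 2.70-fold (exact sign-flip test, adjusted p = 0.0176, n = 7). Leaving out the mice in turn was added once the values had been seen. The adjusted p was over 0.05 for Csf3r and Csf2ra without SPM mouse 2 (0.0527), 3 (0.0603) or 4 (0.0603) or vehicle mouse 1 (0.0603) or 2 (0.0527), and for Csf3 and Flt3 without any mouse but SPM mouse 1 (0.0527 to 0.0703, exact sign-flip tests, n = 7).

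**Figure D4:**
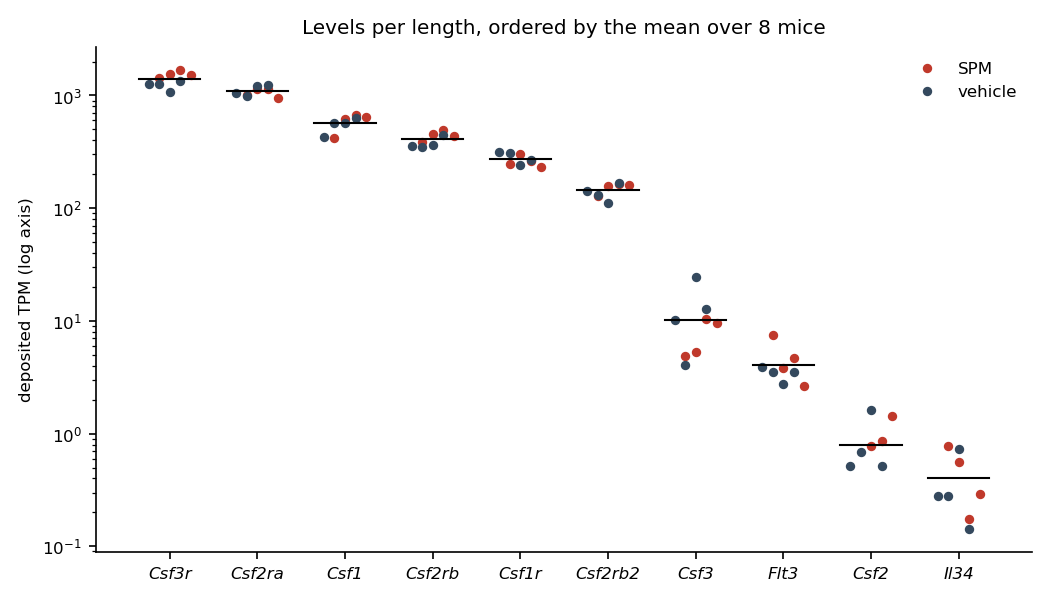
Deposited TPM (log axis) of the 10 transcripts in each of the 8 mice, ordered by the mean, which is drawn as a line. The 6 transcripts on the left have means of 145 TPM or more and the 4 on the right of 10.2 TPM or less. The mouse with 0 TPM of Csf2 (SPM mouse 1) has no point on the log axis.

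Csf1r followed the summed resident MΦ markers from mouse to mouse. Over the 8 mice, its log2 CPM correlated with the log2 of the summed CPM of the 8 markers with Pearson's r = 0.942 (exact permutation p = 0.000595, adjusted p = 0.00298 over the 5 relations tested) and Spearman's rho = 0.905 (exact permutation p = 0.00456, adjusted p = 0.0228). Without the mice farthest from the median, SPM mouse 4 and vehicle mouse 2, r was 0.936. Within the SPM group r was 0.943 and within the vehicle group 0.855, over 4 mice each. The sum was mostly Adgre1 (338 CPM after SPM, 391 CPM after vehicle), C1qa, C1qb and C1qc. Gata6 (1.64 and 2.76 CPM) and Timd4 (2.15 and 2.91 CPM) added little to it. With the mean of these markers' log2 CPM r was 0.933 (exact permutation, adjusted p = 0.000868). With the monocyte markers r was 0.677 (exact permutation p = 0.0644, rho = 0.619, p = 0.115, adjusted p = 0.0805 for r and 0.287 for rho) and 0.756 without SPM mouse 1 and vehicle mouse 3. Within the groups it was 0.600 (SPM) and 0.207 (vehicle). With the mean of the markers' log2 CPM in place of the log2 of their sum, r was 0.880 and passed 0.05 (exact permutation, adjusted p = 0.0135).

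The relation of Csf3r to the neutrophil markers was weaker. Over the 8 mice r was 0.463 (exact permutation p = 0.250, rho = 0.357, p = 0.389), with adjusted p = 0.250 for r and 0.462 for rho. Vehicle mouse 3 combined a high marker sum (22373 CPM) with the lowest Csf3r (1530 CPM), and without it and SPM mouse 3 r was 0.772. Within the SPM group r was 0.758, and within the vehicle group it was -0.097.

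**Figure D5:**
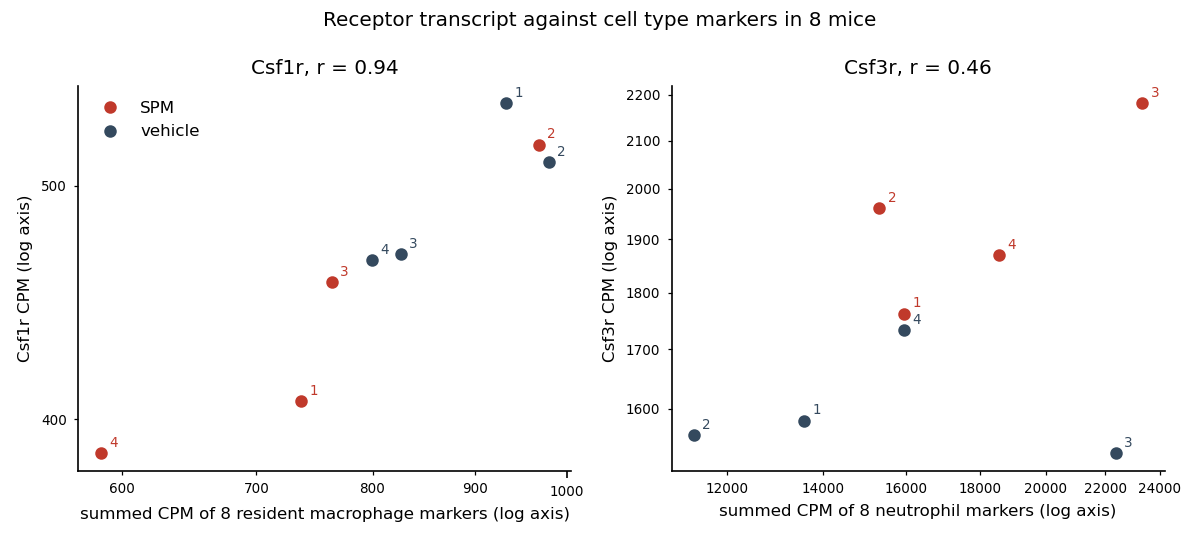
Csf1r against the summed CPM of 8 resident MΦ markers (left) and Csf3r against that of 8 neutrophil markers (right), 1 point a mouse with its number, log axes throughout. Csf1r rises with its markers in both groups (r = 0.942), while vehicle mouse 3 lies far from the other mice for Csf3r (r = 0.463).

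Flt3 and the dendritic cell markers (Zbtb46, Xcr1, Clec9a, Cd209a, Batf3, Siglech and Ccr7), of which 3 of 7 were higher after SPM on the TMM scale and 6 of 7 on the spike-in scale, had r = 0.774 (exact permutation p = 0.0349, adjusted p = 0.0582, rho = 0.310, p = 0.462, adjusted p = 0.462). The relation rested on SPM mice 1 and 4, since r was -0.476 without them, and it was 0.971 within the SPM group and -0.737 within the vehicle group. Of these markers Xcr1, Clec9a and Cd209a were below 1 CPM on average in each group, Zbtb46 was at 4.22 CPM after SPM and 5.33 CPM after vehicle, Batf3 at 4.14 CPM and 4.44 CPM, and the sum was mostly Ccr7 (81.1 CPM after SPM, 78.0 CPM after vehicle). Csf1 and the fibroblast markers (Col1a1, Col1a2, Col3a1, Dcn, Lum, Pdgfra and Pdgfrb) had r = 0.744 (exact permutation p = 0.0348, adjusted p = 0.0582, rho = 0.429, p = 0.299, adjusted p = 0.462). It was 0.625 without vehicle mice 1 and 4, 0.858 within the SPM group and 0.817 within the vehicle group. With the mean of the markers' log2 CPM r was 0.807 and passed 0.05 (exact permutation, adjusted p = 0.0378). The fibroblast markers summed to 48.0 to 74.6 CPM in the SPM mice and 38.2 to 101 CPM in the vehicle mice, far below Csf1 itself, and 1 of 7 was higher (Pdgfrb, log2 fold change 1.03, edgeR, unadjusted p = 0.0116) and 6 lower after SPM (6 higher and 1 lower on the spike-in scale).

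Markers of other cell types were also detected. The B cell markers (5 of 5 higher after SPM, Ms4a1 with an unadjusted p under 0.05 from edgeR) summed to 1028 to 2135 CPM in the SPM mice and 1060 to 1446 CPM in the vehicle mice. The T and NK cell markers were 6 of 7 higher, at 55.1 to 104 CPM and 51.9 to 85.1 CPM. The lower marker, Il7r, made a large part of this sum (32.2 CPM after SPM, 39.1 CPM after vehicle). SPM mouse 1 was the highest of all mice for each of the 6 higher markers. The mast cell markers were 3 of 5 higher, at 50.3 to 88.5 CPM and 60.0 to 79.0 CPM. The 3 eosinophil markers tested of 4 were all higher, at 25.1 to 73.6 CPM and 36.6 to 68.1 CPM. Their sum was nearly all Siglec5 and Ccr3. Prg2 averaged 0.678 CPM after SPM and 0.628 CPM after vehicle, and Epx, not tested, had 3 counts in all. The mesothelial markers (4 of 5 lower, Krt19 with a log2 fold change of -0.80 and an unadjusted p of 0.0192 from edgeR, at 4.45 to 6.45 CPM and 4.59 to 8.51 CPM) and the endothelial markers (3 of 3 lower, at 29.8 to 35.6 CPM and 18.1 to 45.3 CPM) were low, and on the spike-in scale 4 of 5 and 2 of 3 were higher. The part of these cells in the values of the members was not tested.

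Beyond the members, 36 genes of the same pathway were examined, 35 of them tested. Of these 20 had a higher and 15 a lower fitted level after SPM, with a median log2 fold change of 0.019, and edgeR gave 1 higher and 3 lower gene an unadjusted p under 0.05, beside 2.49% and 3.59% of all genes. After adjustment 0 of the 35 passed. On the spike-in scale 33 of the 35 were higher, including all signalling genes and inhibitors and 9 of the 10 target genes.

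The partners that share chains or receptors with the members were Il3, Il3ra, Il5, Il5ra, Flt3l and Ptprz1. Il3 had no count in any mouse and was not tested, and 3 of the other 5 were higher. Il5ra, the alpha chain of the IL-5 receptor that pairs with Csf2rb, was at 10.8, 10.9, 9.28 and 11.5 CPM in the SPM mice and at 7.29, 7.06, 8.06 and 9.44 CPM in the vehicle mice. Vehicle mouse 4 was above SPM mouse 3, and the log2 fold change was 0.41 (standard error 0.14, edgeR, unadjusted p = 0.00925, adjusted p = 0.790) with a two-sided exact permutation p of 0.0571. Without vehicle mice 1 and 3 its unadjusted p was 0.0538 (edgeR), at a log2 fold change of 0.37. Il3ra, the IL-3 alpha chain, was at 28.1, 22.7, 27.7 and 21.3 CPM in the SPM mice and at 29.0, 31.3, 33.0 and 28.7 CPM in the vehicle mice. All SPM mice were below all vehicle mice, where 3.83% of all genes tested had groups apart in either direction. The log2 fold change of Il3ra was -0.29 (standard error 0.11, edgeR, unadjusted p = 0.0237, adjusted p = 0.790). Its sign turned with the spike-in RNA as the scale (0.22). Its unadjusted p from edgeR was over 0.05 without SPM mouse 2 (0.0713), SPM mouse 4 (0.0963) or vehicle mouse 2 (0.0683). The same held without SPM mice 3 and 4 (0.0847) and without vehicle mice 1 and 3 (0.0829). In these fits the log2 fold change was -0.21 to -0.26. The unadjusted p from limma was 0.0502 on log2(TPM + 1) and 0.0863 on log2(TPM + 0.1).

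The signalling genes (Jak1, Jak2, Tyk2, Lyn, Tyrobp, Stat3, Stat5a, Stat5b, Grb2, Shc1, Gab2 and Pik3cd) lie between receptor and nucleus, and 9 of 12 had a higher fitted level after SPM, 0 with an unadjusted p under 0.05 from edgeR. Jak1 had the smallest p, at 599, 610, 606 and 612 CPM in the SPM mice and 552, 567, 478 and 580 CPM in the vehicle mice (log2 fold change 0.16, standard error 0.09, edgeR, unadjusted p = 0.118). All SPM mice were above all vehicle mice for Jak1 (two-sided exact permutation test, p = 0.0286), and DESeq2 gave it an unadjusted p of 0.0361. The groups of Jak2 did not overlap either (log2 fold change 0.13, edgeR, unadjusted p = 0.136), and it was named after its values were seen. Of all genes tested, 3.83% had groups that did not overlap in either direction. Of the 8 inhibitors (Socs1, Socs2, Socs3, Cish, Ptpn6, Inpp5d, Cbl and Cblb), which switch cytokine signals off, 5 were higher and 3 lower, again 0 with an unadjusted p under 0.05 from edgeR. The smallest p was that of Inpp5d, a lipid phosphatase, at a log2 fold change of 0.13 (standard error 0.11, edgeR, unadjusted p = 0.269).

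Of 10 genes known to respond to these cytokines (Pim1, Osm, Bcl2l1, Bcl3, Cebpb, Bcl2a1b, Ccl17, Ccl22, Pparg and Irf4), 3 had a higher and 7 a lower fitted level after SPM, with a median log2 fold change of -0.082. Cebpb, a transcription factor of myeloid cells that G-CSF and GM-CSF induce in emergency granulopoiesis, was at 349, 415, 400 and 369 CPM in the SPM mice and at 470, 528, 862 and 514 CPM in the vehicle mice. All SPM mice were below all vehicle mice, where 3.83% of all genes tested had groups apart in either direction. Vehicle mouse 3 was well above the rest. The log2 fold change of Cebpb was -0.63 (standard error 0.17, edgeR, unadjusted p = 0.00236, adjusted p = 0.790). Without vehicle mouse 3 it was -0.39 (edgeR, unadjusted p = 0.000963), and with the spike-in RNA as the scale it was -0.10 (unadjusted p = 0.740). Bcl2a1b, of the anti-apoptotic A1 family, was at 59.6 ± 9.10 CPM (SD, n = 4) after SPM and 73.7 ± 6.74 (SD, n = 4) after vehicle (log2 fold change -0.31, standard error 0.11, edgeR, unadjusted p = 0.0197). Its unadjusted p from edgeR was over 0.05 without SPM mouse 1 (0.0707), SPM mouse 3 (0.0694) or vehicle mouse 3 (0.0501). The same held without SPM mice 3 and 4 (0.121) and without vehicle mice 1 and 3 (0.116). In these fits the log2 fold change was -0.23 to -0.25. The unadjusted p from limma on log2(TPM + 0.1) was 0.0767. With the spike-in RNA as the scale its log2 fold change was 0.16. Bcl2a1b is 1 of several near-identical gene copies, so its reads may be shared between them.

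For members with at least 10 counts in every mouse, the genes with the most similar pattern of log2 CPM over the 8 mice were sought among 13011 genes. These are the highest of many correlations over few mice, and are given as a description. Lyz2, the lysozyme of myeloid cells, was the closest to Csf1r (r = 0.980), followed by Itga5 (0.976) and Ap2m1 (0.974). Foxo3 (0.975), Focad (0.966) and Pramef8 (0.963) were the closest to Csf3r, and Ptpn7 (0.975), Hcls1 (0.954) and Rab11b (0.949) to Csf2ra. Klra8, an NK cell receptor, had the pattern of Flt3 (r = 0.981), with Tmem107 (0.975) and Klra13-ps (0.971). Csf1 was followed most closely by Rap1gap2 (0.962), Irak2 (0.952) and Zfp418 (0.933), and Csf3 by Nipsnap2 (0.987), Tkt (0.985) and Rims3 (0.977). Csf2rb was nearest to Gm24798 (0.968), Susd6 (0.965) and Acvrl1 (0.963), and Csf2rb2 to Ppp1r10 (0.953), Zfp516 (0.941) and Ptger1 (0.931). Among the members themselves the highest r over the 8 mice were 0.81 between Csf2rb and Csf3r and 0.78 between Csf2rb and Csf2rb2.

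Promoter sequences of RefSeq (GRCm38.p6) were searched for 6 of the 10 members. Those of Csf1r, Csf2rb, Csf3 and Il34 were left out of the search, so nothing is said of their motifs. The sequences searched reach across the start in the deposited coordinates, except for Csf2 and Csf2rb2. The Csf2 sequence (chr11:54249850-54250149) lies wholly upstream of the start used here. That of Csf2rb2 (chr15:78305672-78305971) lies upstream of the deposited start, but reaches across the GENCODE M21 start (78305721). Those of Csf3r and Csf2ra are shown because these were the members with the highest levels. GAGGAA, the purine-rich core of sites for PU.1, a transcription factor of myeloid cells, was sought on both strands. It occurred 1 time in the promoter of Csf3r and 2 times in that of Csf2ra, as written, with no overlap between matches, and 28.3% of 32851 mouse promoters of this length hold it. It was also found 2 times in Csf2rb2, as the reverse complement, and not in Csf1, Csf2 or Flt3. Capitals mark the matches, which are a match of letters and not a measured site. The Csf3r promoter is chr4:126024409-126024708 on the plus strand and that of Csf2ra chr19:61228369-61228668 on the minus strand.
Csf3r: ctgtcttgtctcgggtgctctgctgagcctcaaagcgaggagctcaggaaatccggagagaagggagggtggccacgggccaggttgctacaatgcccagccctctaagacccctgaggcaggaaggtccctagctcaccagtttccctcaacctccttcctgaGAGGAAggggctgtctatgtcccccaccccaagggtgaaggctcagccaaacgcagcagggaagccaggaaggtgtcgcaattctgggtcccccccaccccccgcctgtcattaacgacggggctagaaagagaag
Csf2ra: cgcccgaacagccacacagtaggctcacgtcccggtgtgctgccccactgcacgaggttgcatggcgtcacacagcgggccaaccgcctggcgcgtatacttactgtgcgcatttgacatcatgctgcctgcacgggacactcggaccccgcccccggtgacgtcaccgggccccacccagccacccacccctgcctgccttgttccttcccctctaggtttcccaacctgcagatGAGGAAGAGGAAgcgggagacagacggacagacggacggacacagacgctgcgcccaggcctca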

How the data were processed

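The authors trimmed the paired-end reads of polyA RNA (Trimmomatic 0.36), aligned them to GRCm38 with ERCC spike-ins (STAR 2.5.2b) and counted unique reads in exons (featureCounts of Subread 1.5.2). The submitters' notes also list GRCm39. The strand setting and annotation release are not given in the sources used here. The deposited counts are raw, and the deposited TPM equals the counts per gene length, rescaled in each library, to within 5e-05. Coordinates are those of the deposited tables. They are the same in GENCODE M21, which was used for overlaps, except for Csf1r, Csf2ra, Csf2rb and Csf2rb2.

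Spike-ins (0.517% to 1.27% of all counts, in 92 rows) were left out. Genes with at least 10 counts in total were tested with edgeR 4.0.16 (R 4.3.3, TMM, quasi-likelihood F test, no covariate), and p-values were adjusted by Benjamini-Hochberg over 21423 genes. Single values were compared by two-sided exact permutation tests, and ratios used TPM plus 0.01. DESeq2 1.42.0 and limma 3.58.1 were alternatives, with other scalings and filters, a replicate block and mice left out. No 2 libraries were duplicates (chi-square per gene of 8.41 to 63.8 over 28 pairs).

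The genes named are all 10 members, the gene of each pathway list with the smallest p, pathway genes with an unadjusted p under 0.05, and the 3 genes most like each member by Pearson's r. Marker genes named with values were chosen after their values were seen. The members and lists were chosen with earlier results of these data known. 1 gene of the signalling list is not reported here and was left out of the counts of its list. Labels alone set the groups.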

Additional observations from a re-analysis of the deposited data

Results flagged for a closer look

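The Csf2 level of vehicle mouse 3, at 0.510 CPM (10 counts), lay far from the other vehicle mice, which were at 0.143, 0.187 and 0.147 CPM (3 to 4 counts). The gap to the nearest mouse was 0.880 of the range of the group, above Dixon's 95% critical value for 4 samples. Of 20 groups of values examined 1 passed, and chance passes about 1 in 20.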

How the results depend on the processing

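With the spike-in total as library size, 4 members, 3607 genes unadjusted and 126 adjusted were under 0.05 (main values 1, 1303 and 0), and Csf2 (0.21), Csf1r (0.32), Csf2ra (0.41), Il3ra (0.22) and Bcl2a1b (0.16) turned positive on the log2 scale. With every gene of at least 1 count these counts were 3, 2347 and 160. The adjusted calls then included 1 member, Csf3. Without SPM mice 3 and 4 there were 2 members under 0.05 and Csf1 was at -0.14. Without vehicle mice 1 and 3 there were 0 members and 653 genes, with Csf1 at -0.026 and Csf2 at 0.27. With 1 mouse left out in turn, there were 0 to 2 members and 816 (without vehicle mouse 1) to 1584 genes under 0.05, and the log2 fold change ranged from -0.064 to 0.20 for Csf1, from -0.097 to 0.95 for Il34 and from -0.70 to 0.33 for Csf2. The 2 members were Csf1r and Csf3r without SPM mouse 2, Csf3r and Flt3 without SPM mouse 4, and Csf3 and Csf3r without vehicle mouse 2, and the 0 was without SPM mouse 3. With the mean of the markers' log2 CPM, r was 0.88 for Csf1r and monocyte markers and 0.81 for Csf1 and fibroblast markers, and both then passed 0.05 after adjustment. The cause of these shifts was not tested. The ratios kept their direction under the alternatives run, except that Il34 to Csf1 was at -0.22 without SPM mouse 1 and -0.16 without vehicle mouse 4, and the number of differing pairs of levels was 8 with the median TPM and with a pseudocount of 0.1, and 6 to 9 with 1 mouse left out in turn, an alternative chosen after seeing the data. Over the members' log2 fold changes, 163 values kept their direction and side of the threshold, 11 turned, 11 passed the threshold and 3 fell short of it. At 0 to 11 counts a mouse, depth limits Csf2 and Il34.

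With the mouse number as a replicate block, 2 members (Csf3, -0.69, edgeR unadjusted p = 0.0160, and Csf3r, 0.28, unadjusted p = 0.0346) were under 0.05, as were 1333 of all genes, and 0 genes passed after adjustment. The labels do not state that the numbers pair the mice. Same-numbered mice deviated with correlations of -0.0036, 0.074, 0.060 and -0.0067, and differently numbered mice with -0.053 to 0.052. These values do not settle whether the mice were paired.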
